A study of Mus musculus with 4 samples.

Results

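The Clca genes encode calcium-activated chloride channel regulators, and all 7 of the family's genes named Clca1, Clca2, Clca3a1, Clca3a2, Clca3b, Clca4a and Clca4b were examined, out of 55203 genes listed. The members were chosen by gene name, with the higher FPKM of Clca3a2 in the fresh-frozen libraries already known. The level of a gene is the sum of FPKM (sequenced fragments divided by transcript length and by library size) over its transcript rows, 16 rows for the 7 genes. The libraries came from intestine of adult male wild-type C57BL/6NTac mice, 8 to 12 weeks old and free of specific pathogens. Of 4 libraries, 2 carry the label RVC, for tissue treated with 4 mM ribonucleoside vanadyl complex, a ribonuclease inhibitor, and 2 the label fresh frozen. The protocol text, which is the same for all libraries, describes an RVC rinse, so how the fresh-frozen tissue differed is known from its label alone. The labels call the tissue ileum and the protocol calls it distal colon. The colon gene Hoxb13 measured 98.5 to 133 FPKM and the ileal bile acid binding protein gene Fabp6 2.70 to 3.96. Not all markers were so far apart: Hoxd13, of the colon list, measured 5.68 to 39.5 FPKM, and Fabp2, of the ileum list, 14.5 to 43.7. Of the 6 ileum genes, Fgf15 and Apoa4 were listed at 0 in all libraries. Each library has a batch number of its own, and the labels do not say what the number marks. If it marks a batch, effects of batch and of group cannot be told apart. Nothing in the labels says whether the libraries of a group came from separate mice, so p-values measure only the spread between these libraries, which may be technical.

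CLCA proteins are secreted or shed, cut themselves by an internal metalloprotease activity, and can raise calcium-activated chloride currents through the channel anoctamin 1, although they are not channels themselves. Clca1 is a main product of intestinal goblet cells, the cells that make mucus, and its protein is a component of the mucus layer. Clca4a is known from absorptive enterocytes, Clca2 from stratified epithelia, and Clca3a1 from lymphatic endothelium. Older names cross over: RefSeq lists Clca1 as a synonym of the present Clca3a1, and Clca2 as a synonym of both Clca3a2 and Clca1, so values are given here under the present symbols only.

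The coding sequences show which members are near copies of each other, and therefore where sequencing reads could be credited to the wrong gene. The stretch in which the 7 coding sequences are most alike is shown for each member, with capitals at bases that differ from Clca1 (GRCm39, GENCODE vM39 coding sequences, all on the minus strand of chromosome 3, each stretch crossing an exon junction).
Clca1: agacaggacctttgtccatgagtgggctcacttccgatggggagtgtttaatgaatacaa
Clca2: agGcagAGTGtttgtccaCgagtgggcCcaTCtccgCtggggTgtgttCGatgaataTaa
Clca3a1: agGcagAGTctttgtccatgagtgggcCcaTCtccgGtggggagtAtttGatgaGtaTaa
Clca3a2: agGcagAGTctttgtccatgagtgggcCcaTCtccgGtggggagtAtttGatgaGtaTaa
Clca3b: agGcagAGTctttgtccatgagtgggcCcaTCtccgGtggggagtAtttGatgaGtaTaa
Clca4a: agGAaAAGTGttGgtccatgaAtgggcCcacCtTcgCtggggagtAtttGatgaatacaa
Clca4b: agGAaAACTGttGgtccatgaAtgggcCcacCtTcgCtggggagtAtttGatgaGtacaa
Over these 60 bases the 3 Clca3 genes are identical, Clca4a and Clca4b differ from Clca1 at 15 and 16 bases, and Clca2 differs from it at 14. In Clca1 the stretch lies at chr3:144730335-144733057, introns included, and in Clca4a at chr3:144675117-144676080. It contains, in frame, the codon pattern of the zinc-binding motif of many metalloproteases, which is CAC or CAT, then GAA or GAG, any pair of codons, and CAC or CAT. All 7 members held this pattern, which was searched on the coding strand only, against 3.33% of 21483 mouse coding sequences.

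Over the whole coding sequence, likeness was high within the Clca3 genes and within the Clca4 genes. Clca3a1 and Clca3a2 were identical at 97.1% of 2709 aligned bases, and Clca4a and Clca4b at 96.0% of 2778. Clca3b, also of the Clca3 set, matched Clca3a1 at 86.4% and Clca3a2 at 86.6%. Clca1 matched no other member above 61.9%, and Clca2 none above 56.6%. The longest run of identical coding bases was 242 nt between Clca3a1 and Clca3a2, and 168 nt between Clca4a and Clca4b, both longer than a sequencing read of 150 nt. These runs are printed because a read that lies wholly inside one cannot tell the paralogues apart.
Clca3a1 and Clca3a2, coding bases 902 to 1143 of each: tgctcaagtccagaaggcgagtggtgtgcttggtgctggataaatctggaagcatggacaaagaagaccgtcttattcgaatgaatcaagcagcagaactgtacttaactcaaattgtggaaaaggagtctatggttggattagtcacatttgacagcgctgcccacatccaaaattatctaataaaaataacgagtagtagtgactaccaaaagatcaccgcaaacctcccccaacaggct
Clca4a and Clca4b, coding bases 1279 to 1446 of each: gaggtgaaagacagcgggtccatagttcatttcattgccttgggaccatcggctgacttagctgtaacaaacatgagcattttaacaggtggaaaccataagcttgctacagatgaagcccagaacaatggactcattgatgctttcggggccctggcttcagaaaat
The first run spans chr3:144457740-144460551 in Clca3a1 and chr3:144516452-144519273 in Clca3a2, and the second spans chr3:144666405-144667691 in Clca4a and chr3:144625044-144627691 in Clca4b, introns included.

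Counted over all words of 150 nt in the longest transcript of each gene, 2.65% of those of Clca3a2 also occurred in Clca3a1, and 0.667% of those of Clca4b in Clca4a. Of the 2855 words of Clca4a, 200 occurred in Clca4c-ps, a transcribed pseudogene that lies in the same cluster and is not one of the 7. For Clca1, Clca2 and Clca3b the count of shared 150-nt words was 0 (of 3506, 3839 and 3369). With words of 31 nt, 37.6% of those of Clca3a2 occurred in Clca3a1 and 35.2% of those of Clca4b in Clca4a, whereas Clca1 and Clca2 still shared 0. Clca3b did share words of 31 nt: it held 10.7% of those of Clca3a2, and 12.8% of its own occurred in another Clca gene. Clca1 and Clca2 thus shared no word of these lengths with another Clca gene. The values of the Clca3 genes, of the Clca4 pair and of Clca4c-ps are uncertain to the extent that both mates of a fragment fall in identical stretches.

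**Figure D1:**
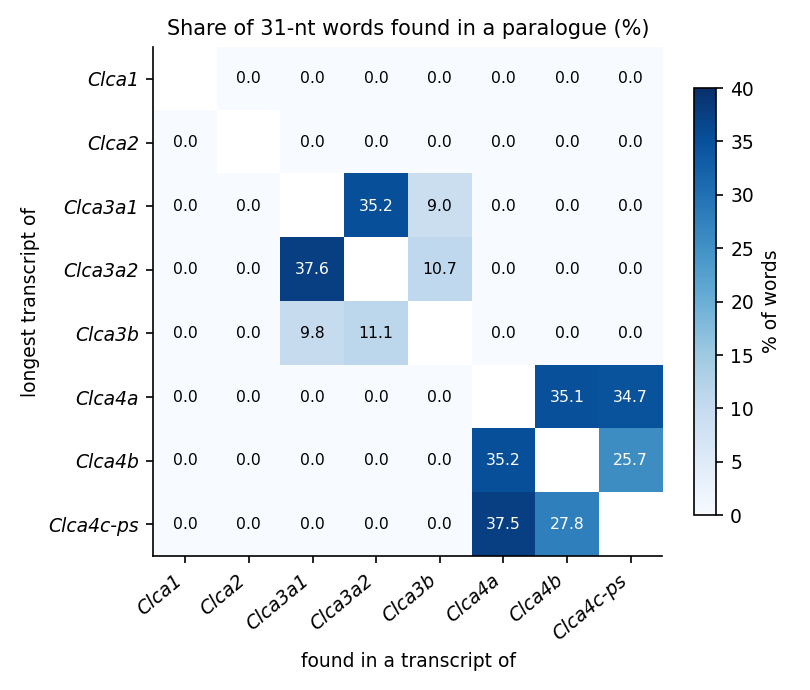
Share of the 31-nt words in the longest transcript of each Clca gene (rows) that occur in a transcript of another Clca gene (columns), in percent, from GENCODE vM39 sequences. Sharing is confined to the Clca3 block, where Clca3a2 holds 37.6% in common with Clca3a1, and to the Clca4 block with the pseudogene Clca4c-ps, and the rows of Clca1 and Clca2 are at 0.

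The cluster spans 369.8 kb of chromosome 3 (144435438 to 144805204, GRCm39), and all 7 members are annotated on the minus strand. From low to high coordinate the order is Clca3a1, Clca3a2, Clca3b, Clca4b, Clca4a, Clca1 and Clca2, with Clca4c-ps between Clca3b and Clca4b. Levels per length differed widely along it, from a mean of 2916 FPKM for Clca1 to 0.711 for Clca3a1. Since members were chosen with earlier results of these libraries known, levels and differences between the groups are given as descriptions without a p-value.

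Clca1 (ENSMUSG00000028255, 144709578 to 144738537) stood at 3665 FPKM in RVC library 1, 2385 in its replicate, and 2591 and 3024 in fresh frozen 1 and 2. The mean was 2916 ± 566 FPKM (SD, n = 4). Among 46332 genes with a transcript of at least 300 nt and a valid estimate, Clca1 ranked 19 and 26 with RVC, and 21 and 18 fresh frozen. It made up 92.2% to 96.1% of the summed FPKM of the 7 members. The groups overlapped, and the RVC libraries, which were 1.54-fold apart, held both the highest and the lowest value.

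Nearly all of this was the full-length transcript of 3655 nt, with 94.8% to 96.9% of the gene's FPKM. A 261-nt transcript, ENSMUST00000195901, had 115 and 92.5 FPKM under RVC, and 135 and 142 when fresh frozen. Its 2 annotated exons (144714837 to 144714934 and 144710318 to 144710480) overlap exons of the full-length form, so reads within them can be shared. Reads across their junction do not match the full-length form, which has exons in between (144713514 to 144713684 and 144711641 to 144711877). How many reads crossed that junction is not known, and FPKM of so short a transcript is unstable. The remaining transcript stayed at or below 0.295 FPKM.

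Clca4a (ENSMUSG00000068547, 144658241 to 144680806), the enterocyte member, measured 124 and 177 FPKM under RVC, then 121 and 164 fresh frozen, with a mean of 146 ± 28.2 (SD, n = 4). Library 2 was the higher of each group, and the groups overlapped. The files list 2 transcripts of Clca4a that differ by 6 nt at the 3′ end and by 0 at the 5′ end. The form of 3004 nt took 5.20%, 0.0162%, 11.6% and 6.25% of the gene's FPKM in RVC 1, RVC 2, fresh frozen 1 and fresh frozen 2. That division rests on 6 bases, and the gene sum does not depend on it.

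Clca3b (ENSMUSG00000037033, 144528384 to 144555118) came next, at 19.3 and 19.9 FPKM with RVC, and 23.5 and 39.7 fresh frozen, with a mean of 25.6 ± 9.60 (SD, n = 4). Fresh frozen 2 stood apart from the other 3 libraries. Clca4b (ENSMUSG00000074195, 144616682 to 144638290) was the steadiest member across libraries, at 3.50 and 4.14 FPKM with RVC, and 3.68 and 3.85 fresh frozen, 1.18-fold from lowest to highest. Its near copy Clca4a was 32.9 to 42.7 times higher in the same libraries. The pseudogene Clca4c-ps, at 12.8 ± 2.25 FPKM (SD, n = 4), was also above Clca4b, by 2.92 to 3.74 times. Of its words of 150 nt 7.61%, and of those of 31 nt 37.5%, also occurred in Clca4a. How much of the pseudogene's value came from reads of Clca4a was not tested.

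Clca3a2 (ENSMUSG00000028262, 144502320 to 144525255) measured 0.592 and 0.583 FPKM with RVC, but 2.62 and 2.12 fresh frozen, and had the widest range of the members, 4.50-fold. Clca2 (ENSMUSG00000036960, 144776024 to 144805204) was listed at 1.10 and 0.497 FPKM with RVC, and 0.516 and 0.828 fresh frozen. Clca3a1 (ENSMUSG00000056025, 144435438 to 144466738) was listed at 0.464 and 0.769 in RVC and 0.711 and 0.900 in fresh frozen. Both overlapped between the groups.

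In the order of the means, Clca1, Clca4a, Clca3b, Clca4b and Clca3a2, each neighbouring pair was separate in all 4 libraries. The lowest Clca4b value, 3.50 FPKM, lay above the highest Clca3a2 value, 2.62. Ranges overlapped for the other 2 neighbouring pairs, Clca3a2 with Clca2 and Clca2 with Clca3a1, and the place of Clca2 before Clca3a1 was reversed without RVC 1.

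**Figure D2:**
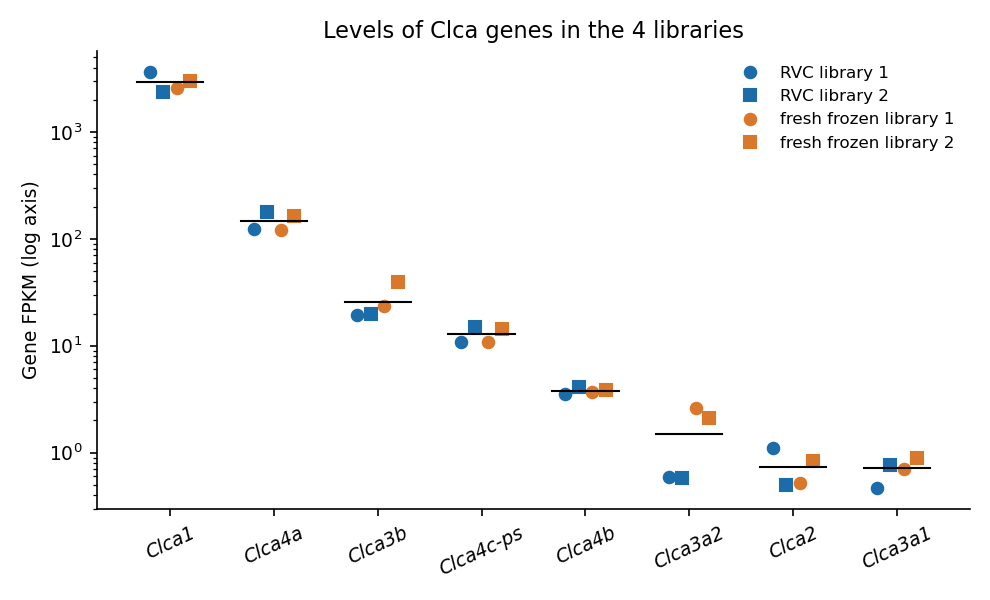
FPKM of each Clca gene (log axis) in the 2 RVC libraries (blue) and the 2 fresh-frozen libraries (orange), with circles for library 1, squares for library 2 and a line at the 4-library mean, and with the pseudogene Clca4c-ps included. Clca1 lies between 2385 and 3665 FPKM, and the blue and orange points of Clca3a2 are apart, at 0.583 to 0.592 and 2.12 to 2.62.

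Genes on either side of the cluster were at intermediate levels. Sh3glb1, next to Clca3a1, measured 51.0 ± 2.82 FPKM, Selenof beyond it 89.0 ± 10.6, and Odf2l, next to Clca2, 8.88 ± 1.98 (SD, n = 4 each). Short genes annotated on the opposite strand overlap Clca3a1 (Gm34866), Clca3a2 (Gm43240), Clca3b (Gm16215) and Clca4a (Gm16233 and Gm35066). Gm34866 was listed at 0.111 to 0.314 FPKM beside 0.464 to 0.900 for Clca3a1, and Gm43240 at 0 to 0.224 beside 0.583 to 2.62 for Clca3a2. No strand setting is given in the sources used here.

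**Figure D3:**
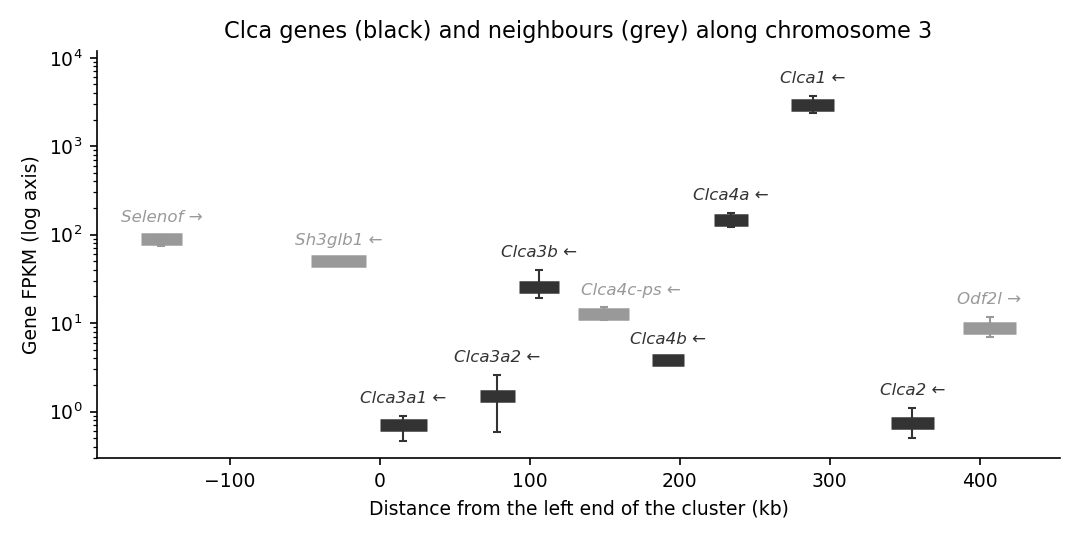
Mean FPKM (log axis) of the Clca genes (black) and 4 other genes of the region (grey) against distance in kb from the left end of the cluster. Bar width is the gene's span, whiskers reach from the lowest to the highest of the 4 libraries, and arrows give the strand. Clca1 and Clca4a, at 2916 and 146 FPKM, lie side by side, and the ends of the cluster, Clca3a1 and Clca2, are below 1 FPKM on average.

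Clca1 was next set beside other products of goblet cells. Zg16, a lectin-like protein of goblet cell granules, measured 7433 to 8713 FPKM, and the ratio of Clca1 to it was 0.421 and 0.321 in RVC and 0.344 and 0.356 in fresh frozen. Fcgbp, a mucus protein, measured 643 to 989 FPKM, with Clca1 3.70 and 3.61 times higher in RVC and 4.03 and 3.12 times in fresh frozen. Muc2, the gel-forming mucin, was 302 FPKM in fresh frozen 2 and 139 to 176 in the other libraries, so the ratio of Clca1 to Muc2 was lowest in fresh frozen 2, at 10.02, against 16.7 to 20.8 elsewhere. Of 16 goblet cell genes 15 were tested between the groups, and 0 passed an adjusted p of 0.05 in limma, with 1, Agr2, at an unadjusted p under 0.05, as had 18.4% of all genes. Their median log2 difference, RVC less fresh frozen, was 0.039, against 0.0066 over all genes tested.

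Clca1 and Clca4a differed in which library was highest. Clca1 was highest in RVC 1 and Clca4a in RVC 2, so the ratio of Clca1 to Clca4a ran from 29.7 in RVC 1 to 13.5 in RVC 2, with 21.4 and 18.4 in the fresh-frozen libraries. The colonocyte gene Car1, for carbonic anhydrase 1, measured 1576 to 1781 FPKM, and Clca4a was 0.0694 and 0.107 of it in RVC and 0.0754 and 0.104 in fresh frozen. Summed over 13 surface colonocyte genes, FPKM was 19150 and 18110 in RVC and 17023 and 13116 in fresh frozen, an order of libraries that Clca4a did not follow.

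Markers were also read for 2 other cell types known for Clca genes. Of 12 genes of stratified squamous epithelium, Krt4 and Krt6a were listed at 0 in all libraries, Trp63 reached 0.0065 FPKM and Krt5 0.0366. Krt14, which with Krt5 marks basal cells, measured 0.350 to 1.19 FPKM. The highest of the 12 were Krt10, at 1.30 to 2.53 FPKM, and Sprr1a, at 0.827 to 1.92, and the 12 genes summed to 4.11 and 4.85 in RVC and 3.69 and 5.37 in fresh frozen. Clca2 stood at a mean of 0.735 FPKM in these libraries. The lymphatic endothelial genes Lyve1 and Prox1 measured 7.14 to 17.4 and 0.649 to 0.972 FPKM, beside 0.464 to 0.900 for Clca3a1.

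The groups were compared over 13771 genes with a mean of at least 1 FPKM after scaling, by limma on log2(scaled FPKM + 1), a scale that understates changes of low genes. Of the 7 members 5 entered, and Clca2 and Clca3a1, with means of 0.735 and 0.711 FPKM, did not. Clca3a2 entered only through its fresh-frozen libraries, since its RVC values were below 1. None of the 5 reached an adjusted p of 0.05 in limma, a threshold that 5 genes or 0.0363% of all passed. The groups did not overlap for 2 of the 5 members, Clca3a2 and Clca3b, as for 53.2% of all genes. The median log2 difference over the 7 members was 0.017, against 0.0066 over all genes tested. In bulk tissue, fewer cells of a type and less RNA per cell cannot be told apart.

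Clca3a2 averaged 0.587 ± 0.00578 FPKM with RVC, against 2.37 ± 0.354 when fresh frozen (SD, n = 2 each), 4.04-fold higher in fresh frozen. On the log2 scale with a pseudocount of 1 the difference was -1.08 (SE 0.156). The full-length transcript of 3654 nt was listed at 0.329 and 0.345 FPKM with RVC, and at 0.813 and 1.09 in fresh frozen. The deposited confidence bounds of that transcript reached up to 0.454 and 0.471 in RVC and down to 0.604 and 0.886 in fresh frozen. These bounds cover the error of estimation within 1 library and not the spread between libraries. Those of the 649-nt transcript overlapped, at 0 to 0.580 in RVC 2 and 0.152 to 1.49 in fresh frozen 1.

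The other 3 transcripts of Clca3a2, 602 to 762 nt long, summed with it in unequal parts. In RVC 1 the 762-nt transcript held 44.4% of the gene's FPKM, whereas in RVC 2 the 649-nt transcript held 38.8%. In fresh frozen 1 the 649-nt and 602-nt transcripts were listed at 0.821 and 0.583 FPKM, and in fresh frozen 2 at 0.334 and 0.198. With the full-length transcript alone the log2 difference was -0.53, and with a pseudocount of 0.1 in place of 1 the gene's difference was -1.84. Pooled with Clca3a1, so that reads passing between these near copies stay in the sum, the pair measured 1.06 and 1.35 scaled FPKM with RVC, but 3.29 and 3.05 fresh frozen, and the log2 difference was -0.92. Clca3a1 itself gave -0.16.

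Clca3b averaged 19.6 ± 0.457 FPKM with RVC, against 31.6 ± 11.5 when fresh frozen (SD, n = 2 each), a log2 difference of -0.61 (SE 0.225). The size rested on fresh frozen 2. Without that library the difference was -0.24, and without fresh frozen 1 it was -0.997. Its deposited bounds were 18.3 to 20.2 and 19.0 to 20.9 FPKM in RVC, 22.4 to 24.6 in fresh frozen 1 and 38.5 to 41.0 in fresh frozen 2, which was also the deepest library. At 3361 nt and 1 transcript in the files, Clca3b has no division among transcripts.

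**Figure D4:**
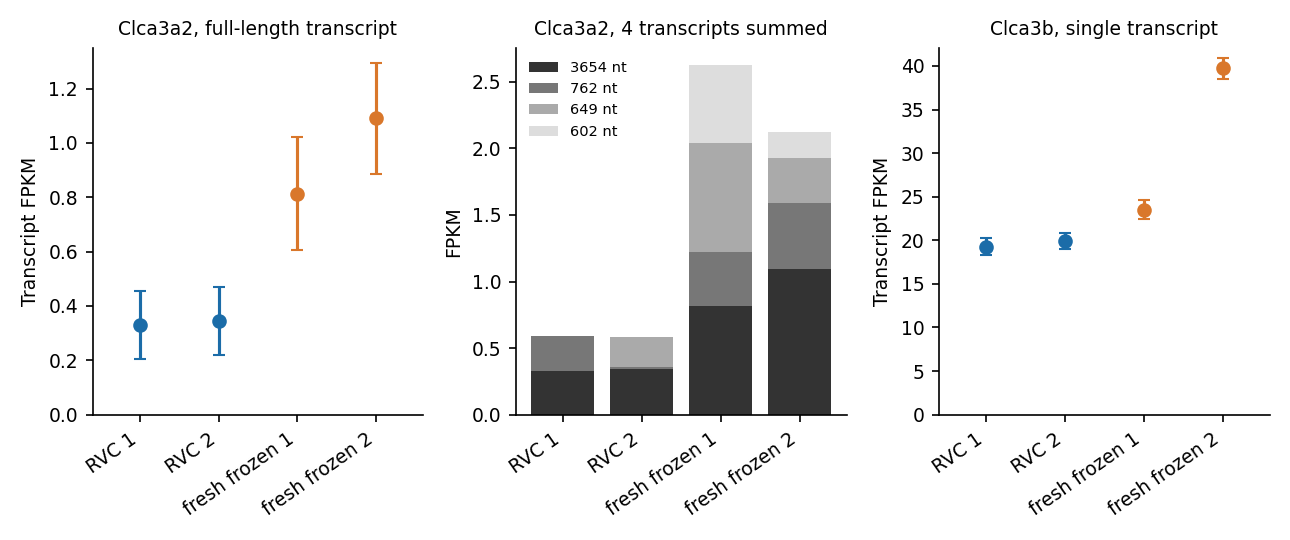
FPKM of the full-length Clca3a2 transcript (left), of the 4 Clca3a2 transcripts stacked (middle) and of the single Clca3b transcript (right) in each library. In the outer panels RVC is blue and fresh frozen orange, with the deposited lower and upper confidence bounds as bars, and in the middle panel grey shades mark transcript lengths. Clca3a2 is higher in both fresh-frozen libraries, with full-length values of 0.813 and 1.09 against 0.329 and 0.345, and Clca3b is highest in fresh frozen 2, at 39.7.

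Clca3a2 and Clca3b have a nearly identical stretch before their start, which is shown because these are the members with no overlap between the groups, a trait of 53.2% of all genes. Start regions of other pairs were not compared. RefSeq promoter windows of 300 bases (GRCm38.p6, 250 before the start and 50 after) were at hand for 5 members, Clca2, Clca3a1, Clca3a2, Clca3b and Clca4b, and not for Clca1 and Clca4a. The longest stretch before the start with at most 1 mismatch between Clca3a2 and Clca3b was 69 bases, with the mismatch in capitals.
Clca3a2, chr3:144819495-144819563, minus strand, 69 to 1 bases before the start: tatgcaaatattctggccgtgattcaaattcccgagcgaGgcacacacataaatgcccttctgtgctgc
Clca3b, chr3:144849311-144849379, minus strand, 77 to 9 bases before the start: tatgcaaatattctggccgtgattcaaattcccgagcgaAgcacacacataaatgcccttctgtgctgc
Both hold the octamer ATGCAAAT, searched on both strands after the sequences were seen, and of the 5 members' windows no other holds it. It occurs in 1.74% of 32851 promoter windows. TATAAA, searched likewise, was found in the window of Clca4b only, and in 13.6% of all windows. Bases outside the windows were not searched for either motif, and the place of a window depends on the annotated start. With this stretch in common, Clca3b was 32.6 and 34.2 times Clca3a2 in RVC and 8.96 and 18.7 times in fresh frozen. Fresh frozen 1 was the higher of its group for Clca3a2 and fresh frozen 2 for Clca3b.

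The abundant members gave small differences within wide spreads. Clca1 averaged 3025 ± 906 FPKM with RVC, against 2807 ± 306 when fresh frozen (SD, n = 2 each), a log2 difference of 0.084 (SE 0.243). The sign turned without RVC 1 (-0.23) and without fresh frozen 1 (-0.046). Clca4a gave 0.071 (SE 0.208) and turned without RVC 2 (-0.18) and without fresh frozen 1 (-0.16). Clca4b gave 0.017 (SE 0.138), the smallest difference of the 7, and Clca2, which was not tested, 0.093. Both of these also turned without fresh frozen 1 (-0.022 and -0.049), Clca4b without RVC 2 (-0.077) and Clca2 without RVC 1 (-0.15). The sum of all 7 members gave 0.081, with scaled sums of 3826 and 2582 for RVC, then 2707 and 3260 for fresh frozen.

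Chloride channels and transporters were taken as the wider pathway. Of 21 genes 15 were tested, and 0 passed in limma, though without adjustment 2 (Lrrc8a and Ttyh2, higher with RVC) and 2 others (lower) had a p under 0.05, against 18.4% of all genes. Their median log2 difference was 0.097. Ano1, the channel that CLCA1 protein is known to act on, measured 127 and 122 FPKM with RVC, and 105 and 111 fresh frozen, and Clca1 was 19.6 to 28.9 times higher. Best2, a bestrophin channel of colonic goblet cells, measured 19.4 to 21.7 FPKM.

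The 2 lower genes were Cftr and Slc12a2, which serve chloride secretion together. Cftr, the apical chloride channel, was listed at 10.02 and 10.3 FPKM with RVC, and 16.0 and 24.6 fresh frozen, a log2 difference of -0.89 (SE 0.196, limma adjusted p 0.129). Slc12a2, the basolateral cotransporter that loads chloride, was listed at 19.6 and 19.6 in RVC and 33.7 and 43.2 in fresh frozen, at -0.92 (SE 0.143, limma adjusted p 0.112). Of the 4 fits that leave out a library, both passed in the one without fresh frozen 1 only, where fresh frozen 2 stands alone and is assumed to vary like the RVC libraries. For both genes, as for Clca3b, the RVC libraries were nearly equal and fresh frozen 2 was highest.

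**Figure D5:**
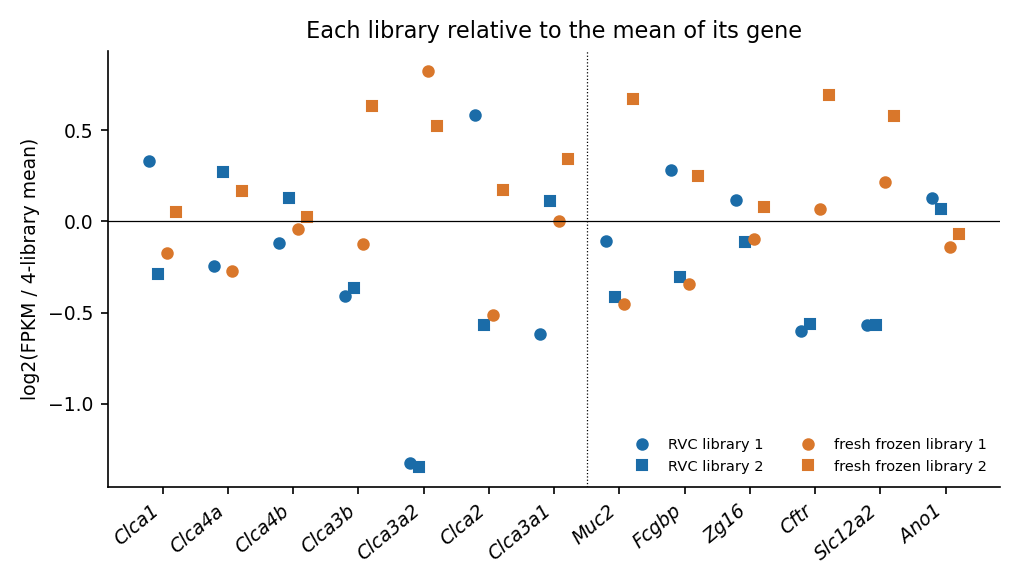
log2 of FPKM over the 4-library mean of the same gene, for the 7 Clca genes (left of the dotted line) and 6 genes of mucus and chloride secretion (right), RVC in blue and fresh frozen in orange, circles for library 1 and squares for library 2. Orange lies above blue for Clca3b, Clca3a2, Cftr and Slc12a2, and below it for Ano1. The groups overlap for Clca1, Clca4a, Clca4b, Clca2 and Clca3a1, and for Muc2, Fcgbp and Zg16. Groups did not overlap for 53.2% of all genes tested.

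Lists of other cell types moved with the groups as well, and their part in the Clca values was not tested. Summed FPKM of 10 smooth muscle genes was 1196 and 1759 in RVC and 750.1 and 800.2 in fresh frozen. The 7 lymphatic endothelial genes summed to 98.7 and 128 against 55.8 and 59.3, the 6 blood endothelial genes to 22.2 and 21.9 against 10.9 and 13.8, and the 6 plasma cell genes to 921 and 819 against 311 and 527. The sum of the 6 stem and proliferation genes went the other way, at 15.2 and 17.1 for RVC, then 21.9 and 26.6 for fresh frozen. Its largest members were Mki67 (RVC 5.35 and 6.51, fresh frozen 9.12 and 10.1) and Top2a (RVC 5.65 and 6.33, fresh frozen 8.44 and 10.3). Ascl2 was also higher in fresh frozen, at a mean of 0.661 over all libraries. For Lgr5 (RVC 0.986 and 0.563, fresh frozen 0.601 and 0.806) and Smoc2 the groups overlapped, and Olfm4 was at or below 0.04. None of the 90 tested genes on all lists passed in limma, and before adjustment 30 were higher with RVC, and 5 lower, at a p under 0.05, a threshold that 18.4% of all genes passed.

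Genes with the most similar profile were found by distance between centred log2 values over the 4 libraries, among 7334 genes left after dropping symbols of gene models, clones and immunoglobulins, with a mean of at least 5 FPKM. For Clca1 these were Trim41, Lgals3bp, Lpin2, B4galt3 and Nup214, at distances of 0.054 to 0.13. For Clca3a2 they were Eri2, Hmgn5, Gt(ROSA)26Sor, Acsm3 and Magohb, at 0.19 to 0.30. With 4 libraries, many genes have a like profile, so these names describe the values only.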

How the data were processed

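Members and gene lists were chosen with earlier results of these data known. Per the submitters' processing notes, reads of 150 nt were aligned with TopHat2 2.1.1 to GRCm39 and quantified with Cufflinks 2.2.1. The annotation release and strand setting are not given in the sources used here. The authors deposited FPKM per transcript with a lower and an upper bound, a status, and coverage, which is a read-depth signal, per the file headers. All 16 member transcripts had status OK.

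Count models do not apply to FPKM, and the number of fragments is unknown. Relative depth, from coverage over FPKM, ran from 72.6% to 100% of the deepest library. Cufflinks divides reads among transcripts and near copies by likelihood. Libraries were scaled by median ratio (factors 0.992 to 1.01). Genes with a mean of at least 1, a longest transcript of at least 300 nt and valid status were compared with limma 3.58.1 (R 4.3.3, trend, two-sided, Benjamini-Hochberg). It was also run on simulated data, but their spreads came from its own fit, so that run is no check on these libraries. SDs use deposited FPKM. Sequences came from GENCODE vM39 (aligned with MAFFT 7.526) and, for promoters, RefSeq. Clca3b, Clca2 and a Clca4a transcript differ in length between the files and vM39. Named genes were the members, genes within 200 kb, a fixed set of markers, and the 5 most similar profiles of the most abundant and the widest-ranging member. All marker lists were checked; those of immediate early (8), colon (6) and ileum (6) genes had median log2 differences of 0.32, 0.14 and -0.22.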

Additional observations from a re-analysis of the deposited data

How the results depend on the processing

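Of 74 recomputed member differences, 66 stayed within the pooled SD of the reported value, turns of sign within that SD included. Those with a replicate block are differences of the same group means and equal the reported values by construction. The difference of Clca3a1 turned to 0.059 with the most abundant transcript alone. Clca3a2 ran from -1.84 to -0.53 and Clca3b from -0.997 to -0.24 over their alternatives, all below 0. As neither gene overlapped between the groups, leaving out a library could not turn its sign. The summed Clca difference ran from -0.20 to 0.36 over libraries left out. The count of genes called, 5, became 0 without a filter on low values, with transcripts under 300 nt left out or without a trend, 2 at a mean of at least 5 or with the most abundant transcript, and 8 to 40 with a library left out. At an unadjusted p under 0.05 the fits with 0 calls had 3531, 2577 and 2461 genes. With a replicate block on the sample number, 112 of 13771 genes were called, among them 8 of 90 list genes, Cftr and Slc12a2 included. Clca3a2 was also called, but it was chosen with its difference known and entered only through fresh frozen, so its call is no support. The labels do not say whether the sample numbers pair the libraries. Deviations of RVC 1 and fresh frozen 1 from their group means correlated at -0.134 across genes, which cannot decide it with 2 libraries a group. Each library has its own batch number, whose meaning the labels do not give. Leaving out a library gave 0 to 3 list genes called, and Clca3b was called without fresh frozen 1, where the lone fresh-frozen library is assumed to vary like the RVC libraries. The 4 separate neighbouring pairs in the order of levels stayed 4 in every alternative, with Clca3a1 before Clca2 for the most abundant transcript and without RVC 1. Of pooled words of the members' longest transcripts, leaving out those shared with the pseudogene Clca4c-ps alone, 0.950% were shared at 150 nt, 7.43% at 75 nt and 22.1% at 31 nt. The cause of these changes was not tested. What depth limits in the members was not tested.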

Other observations

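Some goblet cell products varied far more between libraries than Clca1 did. Ang4, an antimicrobial ribonuclease, was listed at 41.8 and 1.12 FPKM with RVC, and 1.95 and 13.2 fresh frozen, libraries 1 and 2 in turn. Retnlb, a secreted resistin-like protein, was listed at 5.37, 0.504, 0.770 and 2.19 in the same order. Clca1, at 3665, 2385, 2591 and 3024 FPKM, had its highest and lowest values in the same libraries as both of these genes. Ang4 and Retnlb were singled out after their values were seen. Among the other goblet cell genes, Zg16 also had its highest and lowest values there. Fcgbp, Tff3, Spdef, Atoh1 and Tpsg1 were highest in RVC 1 but lowest in a fresh-frozen library. Muc2, Bcas1, Fer1l6 and Sytl2 were highest in fresh frozen 2. Agr2, Spink4, Klk1 and Itln1 had their lowest values, 518, 347, 838 and 0.189 FPKM, in RVC 1, where Clca1 was highest. Itln1 was highest in RVC 2, at 0.567, where Clca1 was lowest.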
